A study of Mus musculus with 36 samples.

Results

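The 80 genes described here carry the names of protein subunits of the cytosolic ribosome or of their paralogs. They were taken from the 54532 genes of a liver count table as protein-coding genes whose name gives a protein of the small subunit (*Rps*, with *Rpsa*) or of the large subunit (*Rpl*, with *Rplp0*, *Rplp1* and *Rplp2*), and 32 of them belong to the small and 48 to the large subunit. Of the 82 genes with such a name, *Rpl10l* (0 counts) and *Rpl39l* (10 counts) stayed below the minimum of 100 counts summed over the 36 libraries. Choice by name leaves out subunits with other names, such as *Fau*, and takes in paralogs such as *Rpl3l* and *Rpl7l1*. The product of *Rpl7l1* is a factor of large subunit assembly, although its name counts it to the large subunit here. The rule itself used no measured difference between groups, although it was set with earlier results of these data known.

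Livers of 36 male mice, 2 to 3 months old, on chow and in a 12 h light and 12 h dark cycle, were sequenced by the authors. The groups were 18 mice with 1 intact and 1 altered *Thrb* allele (THRB+/-, called THRB WT as in the labels) and 18 mice with both alleles altered (THRB-/-, called THRB KO), and 3 mice of either genotype were taken every 4 h from ZT2 to ZT22 (ZT is zeitgeber time in h, counted from lights on). The altered allele was present in every cell of the body and in all 36 mice, including the controls, so no group here was free of it. *Thrb*, the gene of thyroid hormone receptor beta, had 28.9 ± 3.69 CPM (counts scaled to a common library size with TMM factors, SD, n = 18, range 24.3 to 38.5) in the THRB WT group, against 31.5 ± 2.70 CPM (SD, n = 18, range 26.2 to 37.7) in the THRB KO group, and counts per gene do not separate the altered transcript, so this gave no check of the genotype labels. Library totals ranged from 29063273 to 42530551 counts. Hepatocyte markers were present in every library, with a summed level of 68610 to 97320 CPM in THRB WT and 75900 to 100600 CPM in THRB KO livers over 8 genes.

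Ribosomal proteins join with ribosomal RNA in the nucleolus to form the small subunit, which reads the mRNA, and the large subunit, which joins amino acids. Their genes are transcribed by RNA polymerase II at high rates in most cells. Many of their mRNAs begin with a run of pyrimidines, the 5′ terminal oligopyrimidine tract or TOP, through which the mTORC1 kinase and the RNA-binding protein LARP1 control how strongly they are translated, so a change in ribosomal protein synthesis need not appear in the mRNA level measured here.

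The RefSeq promoter table (GRCm38.p6) held a start site for 60 of the 80 genes. A TOP start was defined as C at the first transcribed base within a run of at least 5 pyrimidines (C or T) from that base on. It was found for 12 of the 60 genes (20.0%) and for 801 of 26965 other genes (2.97%). Annotated starts can be off by some bases, so the remaining genes may have such a start elsewhere. The windows below, 15 bases before and 15 bases from the annotated start on, are shown for 5 genes with a TOP start and for 3 genes without, because the 4 genes that passed the test for time of day are among them. They are written 5′ to 3′ on the strand of the gene, and capitals mark the pyrimidine run that holds the first transcribed base.
Rps6 (chr4:86857353-86857382, minus strand): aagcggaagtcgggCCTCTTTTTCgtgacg
Rps27 (chr3:90213634-90213663, minus strand): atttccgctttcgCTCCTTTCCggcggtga
Rps18 (chr17:33955651-33955680, minus strand): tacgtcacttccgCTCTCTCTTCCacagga
Rpl38 (chr11:114668565-114668594, plus strand): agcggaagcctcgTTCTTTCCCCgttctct
Rpl28 (chr7:4792950-4792979, plus strand): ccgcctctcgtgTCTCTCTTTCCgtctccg
Rpl22 (chr4:152325711-152325740, plus strand): ttcgccctgggaaaagcaatagctggccga
Rpl22l1 (chr3:28805493-28805522, plus strand): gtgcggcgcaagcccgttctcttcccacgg
Rpl7l1 (chr17:46782642-46782671, minus strand): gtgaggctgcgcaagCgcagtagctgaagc
The runs that hold the start comprised 10 bases in *Rps6* and *Rpl38*, 9 in *Rps27* and 11 in *Rps18* and *Rpl28*, against 1 base in *Rpl7l1* and none in *Rpl22* and *Rpl22l1*.

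Together the 80 genes held 1.90 ± 0.185% (SD, n = 18) of the counts of THRB WT libraries, with a range of 1.60% to 2.19%, and 1.80 ± 0.102% (SD, n = 18) of those of THRB KO libraries, with a range of 1.65% to 2.02%. The ranges overlapped, and the highest library exceeded the lowest by 1.37-fold. At ZT2 the THRB WT mice had 1.99%, 1.79% and 2.19%, and the THRB KO mice 1.72%, 1.66% and 1.82%. At ZT18 the THRB WT mice had 2.06%, 1.88% and 1.79%, and the THRB KO mice 2.02%, 1.79% and 1.84%. The groups overlapped at both times. The mean of the THRB WT group was above that of the THRB KO group at 6 of 6 sampling times, by amounts that lay within the SD of the THRB WT mice except at ZT2 and ZT14. The share was not tested. In whole liver, fewer cells of a type and less RNA per cell cannot be told apart.

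**Figure D1:**
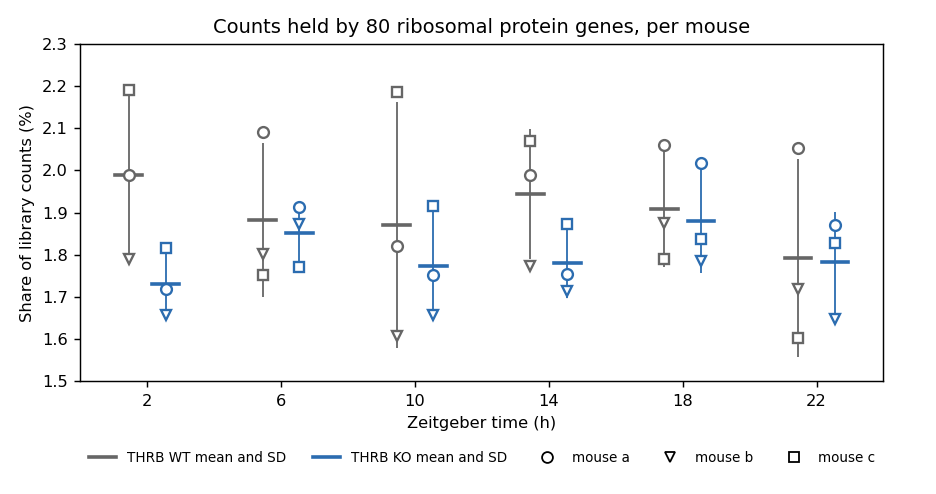
Share of all gene counts held by the 80 ribosomal protein genes in each of 36 livers (y axis in percent, starting at 1.5) against zeitgeber time in h, THRB WT in grey and THRB KO in blue. Bars give the mean and lines the SD of 3 mice, and the symbols mark mice a, b and c, of which b lies below a in 12 of 12 groups.

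Levels were compared between genes per length, as CPM per kb of the transcript with the longest coding sequence in GENCODE M21. The median over the 80 genes was 267 CPM per kb. *Rplp1*, an acidic protein of the stalk of the large subunit that recruits elongation factors, had the highest level at 1000 CPM per kb (999.5), followed by *Rps29* of the small subunit with 912, *Rpl41*, the smallest protein of the ribosome, with 880, *Rpl10*, which takes part in the last step of large subunit maturation, with 711, and *Rps18* with 679 CPM per kb. With the gene lengths of the deposited table in place of these, *Rplp1* again ranked 1, but *Rpl10* ranked 10 and *Rps18* 29, so the order below *Rplp1* depended on the length used. The other stalk genes, *Rplp0* and *Rplp2*, had 375 and 198 CPM per kb, and *Rpsa*, which anchors on the solvent side of the small subunit, had 251 CPM per kb.

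The lowest levels per length were those of *Rpl3l* with 0.178 CPM per kb, *Rpl24* with 1.17, *Rps10* with 4.35, *Rpl13a* with 12.9 and *Rpl7l1* with 28.0 CPM per kb. *Rpl3l* is a paralog of *Rpl3* known from muscle. Its parent *Rpl3* had 216 CPM per kb. *Rpl7l1*, whose product is a factor of large subunit assembly, stood against 305 CPM per kb of *Rpl7*, and *Rpl22l1* with 33.5 against 255 CPM per kb of its parent *Rpl22*. By contrast, *Rps27l* stood nearer to *Rps27*, with 345.5 against 550 CPM per kb.

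Some of the low levels went with counts on near-identical copies. Genes with a transcript of at least 95% identity over at least 80% of its length were found for 77 of the 80 genes, 614 copies in all, of which 581 are annotated as pseudogenes. The copies held 8.03% as many counts as the 80 genes themselves. For *Rps10*, 94.4% of the counts of gene and copies together lay on the copies, with *Rps10-ps2* at a median of 48.1 CPM while *Rps10* had 3.26 ± 0.729 CPM (SD, n = 18) in THRB WT livers. The share on copies was 83.1% for *Rpl24*, 69.1% for *Rpl17* and 68.9% for *Rpl30*. For 19 of the 80 genes it was at least 10%. With the counts of copies added, *Rps10* had 78.1 CPM per kb. *Rpl13a*, with 7.19% of counts on copies, and *Rpl24* stayed low, at 13.9 and 6.95 CPM per kb (rank 78 and 79 of 80). The methods do not say how reads with several matches were counted, or whether they were left out. The split between such genes and their copies is therefore uncertain, and so are their levels, also with copies added.

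Mice of one genotype and sampling time differed in most of these genes about as much as in other genes, without matching for level. The SD between such mice had a median of 0.16 on the log2 scale over the 80 genes and of 0.17 over the 11918 genes that average 50 counts or more, and the highest mouse had less than 2 times the level of the lowest for 71 genes. The genes moved together between mice. After subtraction of the group means, the correlation between pairs of the 75 genes with a mean of at least 1000 counts had a median of 0.841 over 36 mice, against 0.0218 between pairs of 4104 other protein-coding genes of such levels and -0.0343 between a ribosomal protein gene and another gene. These are descriptions without a test, since the values of a mouse share a library and its scaling. The median was 0.864 within the small subunit, 0.818 within the large subunit and 0.846 between subunits. *Rps14* was among the genes most like the rest, with a median correlation with the other genes of 0.929. Those least like the rest were *Rpl30* (0.0615), *Rps2* (0.116), *Rpl7l1* (0.134), *Rpl23a* (0.306) and *Rpl7a* (0.379).

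The SD between mice exceeded 0.3 on the log2 scale for 8 genes, and for 2 after the counts of near-identical copies had been added. *Rpl30* of the large subunit (chr15:34440505-34443640) was the most variable, with an SD of 1.4 alone and of 0.18 with its copies. It had from 3.79 to 106 CPM with a median of 53.0 in THRB WT mice and from 4.00 to 74.2 CPM with a median of 37.6 in THRB KO mice. The levels fell into separate ranges, with 12 mice at up to 6.82 CPM and 24 mice at 25.3 CPM or more. The 12 low mice were 5 THRB WT and 7 THRB KO mice. The altered allele came from a B6.129S1 stock and was bred on a C57Bl/6NCrl background, and whether the mice differed in strain sequence at *Rpl30* was not tested. *Gm12191*, a near-identical gene on another chromosome (99.7% identity), ran from 52.0 to 118 CPM and was high where *Rpl30* was low, with a Pearson correlation of -0.853 and a Spearman correlation of -0.817 over 36 mice. *Rpl17* on chromosome 18 ran from 27.4 to 161 CPM with an SD of 0.89 alone and 0.13 with its copies, and *Rpl17-ps10* (99.3% identity) from 31.4 to 136 CPM in the opposite order, with a Pearson correlation of -0.919 and a Spearman correlation of -0.841. *Rps27* (chr3:90212522-90213651) ran from 94.2 to 284 CPM with an SD of 0.37 alone and 0.15 with its copies, against 17.5 to 147 CPM of *Rps27rt*, a retrogene with 100% identity, with a Pearson correlation of -0.760 and a Spearman correlation of -0.678. In each of these cases the level of the gene alone moved between mice far more than the sum of gene and copies. *Rps27a* was an exception, with an SD of 0.35 alone and 0.33 with its copies.

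**Figure D2:**
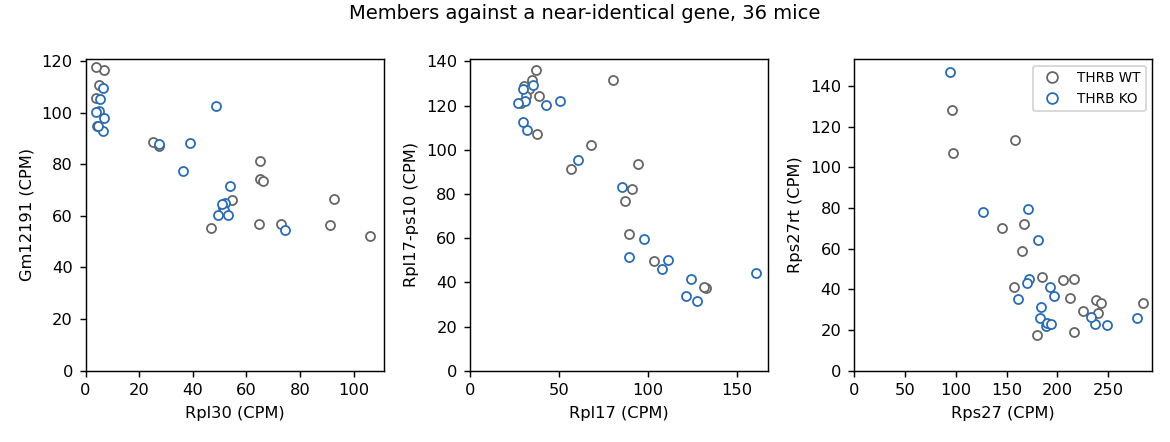
Level of 3 ribosomal protein genes (x axis, CPM) against that of a near-identical gene (y axis, CPM) in 36 mice, 1 circle per mouse, THRB WT in grey and THRB KO in blue. In each panel mice with a high level of the member have a low level of the copy, and the ranges of the genotypes overlap.

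The comparison of genotypes asked whether loss of the second *Thrb* allele altered the mRNA levels. Of the 80 genes, 0 passed the quasi-likelihood test of edgeR, adjusted after Benjamini-Hochberg over all 17994 genes and with sampling time in the model, and DESeq2 called 0 as well, against 171 of 17994 or 0.95% of all tested genes. Without adjustment, 20 of the 80 genes had p under 0.05, against 12.1% of all tested genes. The values leaned in one direction, with 77 of 80 genes lower in THRB KO livers against 50.5% of all tested genes. The median log2 fold change was -0.09 (KO minus WT), with quartiles of -0.11 and -0.06 and a median SE of 0.05, against -0.001 over all tested genes. The number of genes with p under 0.05, which was 20 with all mice, was 4 when the mice labelled a were left out, 32 when b was left out and 7 when c was left out. With the letter as a further term of the model, 33 genes had p under 0.05 and the lowest adjusted p by edgeR was 0.0597. The 12.1% of all tested genes belongs to the fit with all mice and no letter term. Its counterparts under the other fits are not given here. In a fit that took mice of the same time and letter as pairs, *Rps14* passed, as described below under the dependence on processing. Because the genes move together between mice, the number of genes on one side is not a number of independent observations. The subunits had medians of -0.07 (small) and -0.09 (large).

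*Rpl22l1* (chr3:28805436-28807424), the paralog of *Rpl22*, came closest to the threshold. It had from 16.5 to 23.7 CPM with a median of 19.4 in THRB WT and from 13.7 to 23.97 CPM with a median of 17.1 in THRB KO livers. The ranges overlapped over most of their length. Its log2 fold change was -0.20 (SE 0.057), for which edgeR gave an adjusted p of 0.0917. *Rplp1* had from 442 to 669 CPM with a median of 511 in THRB WT and from 415 to 580 CPM with a median of 469 in THRB KO livers, a difference of -0.14 on the log2 scale (SE 0.054, edgeR adjusted p = 0.276). *Rps14* had a log2 fold change of -0.14 (SE 0.049, edgeR adjusted p = 0.192), *Rplp0* of -0.06 (SE 0.037), *Rplp2* of -0.10 (SE 0.052) and *Rpsa* of -0.10 (SE 0.050).

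Among genes with a mean of at least 50 counts, the 4 lowest log2 fold changes were those of *Rpl30* with -0.89 (SE 0.494), *Rpl22l1*, *Rps10* with -0.16 (SE 0.102) and *Rps27a* with -0.15 (SE 0.099). Copies held 68.9% of the counts of gene and copies together for *Rpl30* and 94.4% for *Rps10*. The fold changes of these genes alone are therefore subject to the uncertain split of reads and need not be those of gene and copies together. The 4 highest were those of *Rpl17* with 0.21 (SE 0.270), *Rpl7a* with 0.05 (SE 0.094), *Rpl9* with -0.01 (SE 0.036) and *Rps27l* with -0.01 (SE 0.052). Both *Rpl17* and *Rpl7a* turned to lower in THRB KO livers, at -0.089 and -0.047, when counts of near-identical copies were added, and 79 of 80 genes were then below 0. *Rpl3l*, with 303 counts in all libraries together, averaged 0.200 CPM in THRB WT (SD 0.121, n = 18) and 0.288 CPM in THRB KO livers (SD 0.0801, n = 18), a difference of 0.57 on the log2 scale (SE 0.210, edgeR adjusted p = 0.232). Its parent *Rpl3* had a log2 fold change of -0.09 (SE 0.037).

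**Figure D3:**
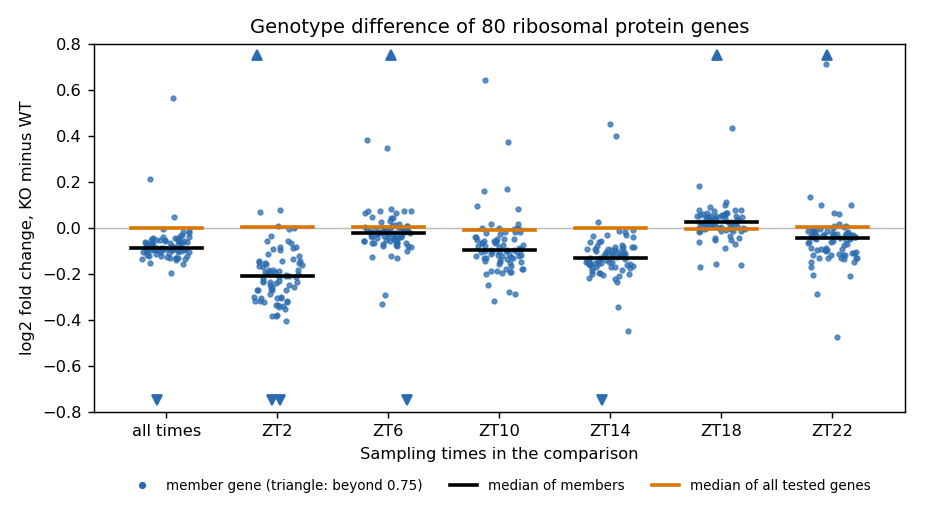
log2 fold change (THRB KO minus THRB WT, y axis) of the 80 ribosomal protein genes over all sampling times and at each sampling time, 1 point per gene. Black bars give the median of the 80 genes, which lies at -0.21 at ZT2 and at 0.03 at ZT18, and orange bars the median of all tested genes, which stays between -0.01 and 0.01, and triangles mark genes beyond the axis limit of 0.75 in size.

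The difference was not the same at every sampling time in size, but no call separated the times. With 3 mice against 3, the number of ribosomal protein genes past edgeR's threshold was 0 at each time, against 0.0278% of all tested genes at ZT2, 0.0111% at ZT6, 0.0167% at ZT10, 0.0167% at ZT14, 0.0222% at ZT18 and 0.0222% at ZT22. The median log2 fold change of the 80 genes was -0.21 at ZT2, -0.02 at ZT6, -0.10 at ZT10, -0.13 at ZT14, 0.03 at ZT18 and -0.04 at ZT22, with a median SE of 0.13 (0.125) at each time. Without adjustment, 24 of the 80 genes had p under 0.05 at ZT2, where 977 of 17994 tested genes did, and from 0 to 2 at the other times, where from 741 to 964 tested genes did. At ZT2, 76 of 80 genes were lower in THRB KO livers, and at ZT18, 56 of 80 were higher. The test of the genotype by time interaction passed for 0 of 80 genes and for 0 of 17994 genes (0% of all tested genes), with 1 of the 80 and 484 of all genes at an unadjusted p under 0.05. That 1 gene was *Rpl30*, named here after its value was seen.

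Some lists of markers of other cell types leaned to one side by genotype, but none of their genes passed the test and the ranges overlapped. All 6 erythroid markers, among them the hemoglobin genes, were lower in THRB KO livers, with a summed level of 219 to 984 CPM in THRB WT and 145 to 646 CPM in THRB KO mice, all 8 Kupffer cell markers were lower, with 169 to 545 and 170 to 326 CPM, and all 5 cholangiocyte markers, with 34.2 to 63.6 and 27.2 to 51.4 CPM. Markers of endothelial cells (2 of 7 lower), stellate cells (2 of 7 lower) and lymphocytes (3 of 8 lower) leaned the other way, with median log2 fold changes of 0.04, 0.04 and 0.03, and 4 of 8 hepatocyte markers were lower. No marker was at 0 in every library. Their part in the result was not tested.

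The length of the coding sequence also went with the genotype difference. Of the 78 ribosomal protein genes with a mean of at least 50 counts, 55 have a coding sequence under 600 bases and 21 one from 600 to under 1200 bases, and their median log2 fold changes were -0.10 and -0.06. Over other protein-coding genes with such means, the median was -0.04 for 1303 genes under 600 bases, -0.0061 for 3126 genes from 600 to under 1200 bases, 0.01 for 2706 genes from 1200 to under 1800 bases, 0.02 for 2304 genes from 1800 to under 3000 bases and 0.03 for 1532 genes of 3000 bases or more. The shortest class held 69.3% of genes below 0 and the longest 33.7%. At ZT2 these medians of other genes ran from -0.10 in the shortest to 0.07 in the longest class, and those of the ribosomal protein genes were -0.25 and -0.15. The ribosomal protein genes were thus lower than other genes of their length class on the median, while the short genes outside the set leaned the same way. The part of length in the result was not tested.

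Many liver transcripts vary over the day, and the sampling times allow the question whether ribosomal protein mRNAs do so too. With sine and cosine terms of a 24 h period over both genotypes, 4 of the 80 genes (5.00%) passed the quasi-likelihood test of edgeR after the same adjustment, against 9091 of 17994 or 50.5% of all tested genes. In THRB WT livers 2 of 80 passed against 33% of all tested genes, and in THRB KO livers 1 of 80 against 28.9%, where 0 passed without the mice of letter a or of letter c. The fitted amplitude (mean to peak, log2) had a median of 0.04 and quartiles of 0.03 and 0.07 over the 80 genes, against a median of 0.19 and quartiles of 0.11 and 0.33 over all tested genes. Of the 75 ribosomal protein genes that average 1000 counts or more, 3 passed (4.00%) and the median amplitude was 0.04, against 69.9% and 0.14 for the 4104 other protein-coding genes with such means. *Rplp0*, often taken as a reference gene, had an amplitude of 0.01 (adjusted p = 0.931 by edgeR), with mean levels from 492 to 524 CPM over the 6 sampling times.

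*Rpl7l1* (chr17:46773907-46782672), the large subunit assembly factor, had the clearest daily curve of the set. Over the 6 mice of each time it had from 53.5 to 65.3 CPM with a median of 61.6 at ZT10 and from 78.4 to 88.8 CPM with a median of 81.7 at ZT14. These ranges did not overlap. It stayed high at ZT18, with 70.0 to 89.6 CPM, and ZT22, with 64.5 to 84.1 CPM. The amplitude was 0.21 with a peak at ZT18.7 (adjusted p = 6.94e-06 by edgeR), and it was the gene that passed in each genotype. A fit per genotype on log2 CPM gave an amplitude of 0.23 (SE 0.037) with a peak at ZT18.3 in THRB WT and of 0.18 (SE 0.053) with a peak at ZT19.3 in THRB KO livers.

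*Rpl22l1* peaked by contrast in the light phase, at ZT5.14 with an amplitude of 0.15 (adjusted p = 0.0109 by edgeR). It had from 19.1 to 23.97 CPM with a median of 22.0 at ZT6 and from 13.9 to 21.03 CPM with a median of 16.8 at ZT14, ranges that overlapped. Its parent *Rpl22* peaked at ZT8.63 with an amplitude of 0.10 (adjusted p = 0.0117 by edgeR), with medians of 131 CPM at ZT6 and 109 CPM (108.5) at ZT22. *Rps6*, the small subunit protein phosphorylated downstream of mTORC1, peaked at ZT12.7 with an amplitude of 0.08 (adjusted p = 0.0203 by edgeR), with medians of 304 CPM at ZT2 and 335 CPM at ZT18 and overlapping ranges. Of these 4 genes *Rps6* has a TOP start in the window shown above, while the windows of the others hold none at the annotated start. *Rps6* lost the call without the mice of letter b (adjusted p = 0.0807 by edgeR) or c (0.174), *Rpl22* without those of letter c (0.185) and *Rpl22l1* without those of letter b (0.135). *Rps27* had a larger fitted amplitude of 0.22 that did not pass (adjusted p = 0.0574 by edgeR), and its reads can be shared with *Rps27rt*. The test of a difference of the daily curve between genotypes passed for 0 of 80 genes and for 0% of all tested genes, with 0 of the 80 and 553 of all genes at an unadjusted p under 0.05.

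**Figure D4:**
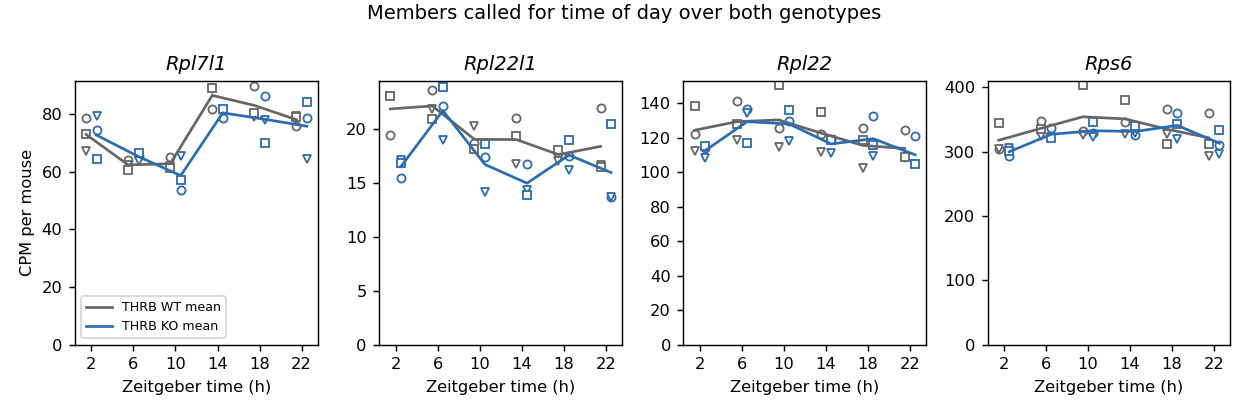
Level of the 4 genes of the set that passed the test for time of day (y axis, CPM, from 0) against zeitgeber time in h. Symbols are single mice (circle a, triangle b, square c), lines join the means of 3 mice, THRB WT in grey and THRB KO in blue, and *Rpl7l1* rises between ZT10 and ZT14 in both genotypes.

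Other genes of ribosome production varied over the day far more often than the ribosomal protein genes. For comparison, 50.5% of all tested genes passed, with a median amplitude of 0.19. Of the other protein-coding genes that average 1000 counts or more, 69.9% passed, with a median amplitude of 0.14. Of 53 genes of ribosome assembly and ribosomal RNA processing, 43 passed the test for time of day (81.1%), with a median amplitude of 0.20, and of 14 genes of the RNA polymerase I machinery, which transcribes ribosomal RNA, 12 passed (85.7%), with a median amplitude of 0.23. *Rcl1*, a factor of small subunit maturation, had an amplitude of 0.45 with a peak at ZT7.09, *Ncl* (nucleolin) 0.23 at ZT12.4, *Nolc1*, a nucleolar phosphoprotein, 0.52 at ZT17.0 and *Rrp12* 0.56 at ZT16.7. Of the RNA polymerase I genes, *Ubtf*, its upstream binding factor, had 0.20 at ZT6.57, *Taf1c* 0.56 at ZT18.2 and the subunit gene *Polr1e* 0.44 at ZT18.2. The peaks of these genes were spread over light and dark phase. Of 21 genes of the mTORC1 pathway and of TOP mRNA control, 17 passed (81.0%), among them *Mtor* with 0.27 at ZT8.01, its inhibitor *Deptor* with 0.25 at ZT9.87 and *Larp1* with 0.25 at ZT22.7. Translation factors and other genes known for TOP mRNAs passed in 14 of 21 cases (66.7%) with a median amplitude of 0.12, among them *Eif4b* with 0.40 at ZT7.14 and *Pabpc1* with 0.20 at ZT8.88. Among 10 ribosomal protein genes outside the name rule 1 passed, *Rpl36al*, with an amplitude of 0.42 and a peak at ZT15.4. For genotype the number past the threshold was 0 in each of these lists, and 10 of 10 genes of the last list were lower in THRB KO livers, with a median log2 fold change of -0.13.

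**Figure D5:**
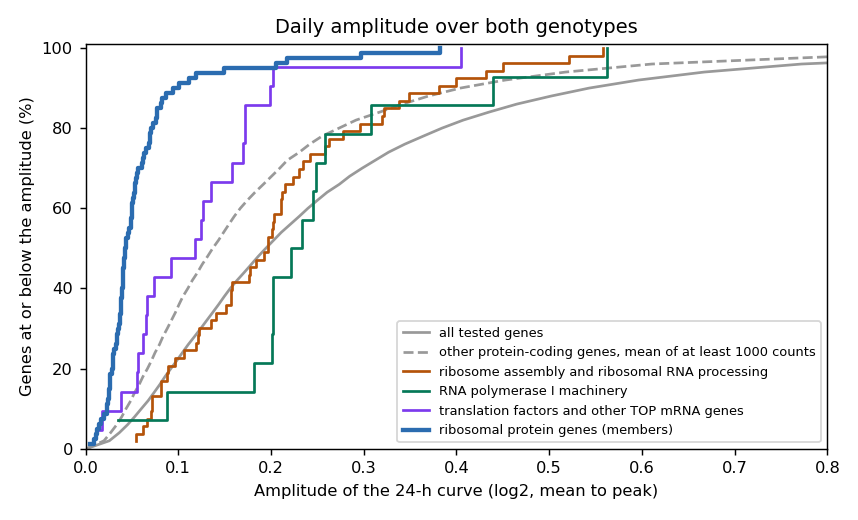
Percentage of genes (y axis) whose fitted 24 h amplitude lies at or below the value on the x axis (log2, mean to peak, both genotypes). The curve of the 80 ribosomal protein genes (blue) reaches 50% of genes at an amplitude of 0.04, against 0.12 for translation factors, 0.20 for assembly genes, 0.23 for RNA polymerase I genes and 0.19 for all tested genes (solid grey). The dashed line gives other protein-coding genes that average 1000 counts or more.

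The labels give the mice of each genotype and sampling time the letters a, b and c, which followed the order of the animal numbers in 12 of 12 groups, and each letter occurs once per group, so that letters and genotypes are balanced. The share of counts of the ribosomal protein genes was lower in mouse b than in mouse a in 12 of 12 groups, with means of 1.92 ± 0.133% for a, 1.74 ± 0.0887% for b and 1.89 ± 0.178% for c (SD, n = 12 each). A test of the letter with the 12 groups in the model was therefore added after this had been seen. It passed for 37 of 80 genes in edgeR, adjusted as above, against 5.19% of all tested genes, and 49 of 80 genes were called lower in b than in a, against 4.52% of all tested genes called in that direction. Counted without regard to the test, 78 of 80 genes lay lower in b. The median log2 fold change of the 80 genes was -0.18 for b minus a, -0.04 for c minus a and 0.13 for c minus b. The comparisons share mice and are not independent of each other. Between c and b, and between c and a, 0 of 80 genes passed in edgeR, while 58 and 6 genes had p under 0.05 before adjustment, against 1594 and 2601 of all 17994 tested genes. With library totals alone in place of TMM factors, the letter test passed for 15 of the 80 genes.

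*Rpl29*, a basic protein of the large subunit, had from 140 to 194 CPM with a median of 170 in mice a and from 130 to 156 CPM with a median of 142 in mice b, a log2 fold change of -0.27 (adjusted p = 0.00243 by edgeR), and was lower in b in 12 of 12 groups. *Rps13* of the small subunit had from 131 to 182 CPM in mice a and from 106 to 145 CPM in mice b, a log2 fold change of -0.25 (adjusted p = 0.00321 by edgeR), again lower in 12 of 12 groups. These genes were named after their values were seen, as those with the smallest adjusted p. *Rpl7l1* (-0.03), *Rpl3* (-0.05) and *Rpl23a* (0.02) had log2 fold changes near 0 in the same comparison. What the letters stand for beyond the order of animal numbers is not given in the sources used here. The letter comparison went with coding length in the same way as genotype, with a median log2 fold change of b minus a of -0.10 over the other genes under 600 bases, of 0.09 over those of 3000 bases or more, and of -0.20 over the ribosomal protein genes under 600 bases. By median log2 fold change, erythroid (-0.61), Kupffer cell (-0.23), lymphocyte (-0.22) and hepatocyte markers (-0.11) were lower in b. Stellate cell (0.26), endothelial (0.24) and cholangiocyte markers (0.18) were higher. The part of these in the letter difference was not tested.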

How the data were processed

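Poly-A selected, non-directional libraries were prepared from Trizol RNA and sequenced in pairs. The authors mapped the reads to GRCm38 (mm10) with HISAT2 and deposited featureCounts counts per gene, whole numbers without normalization; versions, annotation release and treatment of reads with several matches are not given in the sources used here. The libraries do not mark strand, so genes overlapping on opposite strands share reads. Separate animals served as replicates.

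Genes whose counts summed to 100 or more were analysed in R 4.3.3 by the quasi-likelihood test of edgeR 4.0.16 (with limma 3.58.1 and TMM factors from 0.941 to 1.06), with Benjamini-Hochberg adjustment over 17994 genes and a threshold of 0.05. Models held sampling time and genotype, the 12 groups, or sine and cosine terms with a period of 24 h. Standard errors were derived from the fold change and its F value. CPM used TMM-scaled totals, and log2 CPM a prior count of 2. DESeq2 1.42.0 was an alternative. Near-identical copies were found with BLAST 2.17.0 among GENCODE M21 transcripts. Library totals limit precision for genes with few counts. No 2 libraries of a group agreed within sampling noise (chi-square per gene at least 30.2). The fits were tested on simulated data. Alternatives covered scaling, filters, tool, left-out letters, the letters as a block, and RNA integrity. The letter comparison and the addition of copies were chosen after seeing the data.

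Members and gene lists were chosen with earlier results of these data known. Named genes were those called, the 4 highest and 4 lowest genotype log2 fold changes at a mean of at least 50 counts, members called for time, the 5 highest and 5 lowest levels per length, paralogs with their parents, *Rplp0*, *Rplp1*, *Rplp2* and *Rpsa*, and up to 5 called genes per other list by smallest p. The text says where a gene outside this rule is named. 1 gene that the name rule would take in, and some results of single genes, are not reported here.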

Additional observations from a re-analysis of the deposited data

How the results depend on the processing

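The median log2 fold change for genotype and the number of genes lower in THRB KO livers kept their direction under every alternative run for them: DESeq2 and its size factors, library totals alone, TMM factors without these genes, other filters on low counts, sampling time left out, the RNA integrity number as a covariate, the replicate letter as a factor, added copies and the replicate block. Leaving out the mice of 1 letter moved the median between -0.12 and -0.06 and the number of lower genes between 73 and 77, with 32 genes at an unadjusted p under 0.05 without letter b, 7 without letter c and 4 without letter a. Without 1 letter, fold changes ran from -0.0367 (letter a) to 0.1624 (letter c) for *Rpl7a*, from -0.0582 (a) to 0.376 (c) for *Rpl17*, from -0.042 (b) to 0.0169 (c) for *Rps27l* and from -0.0251 (b) to 0.014 (c) for *Rpl9*, so that the sign turned in each. With added copies *Rpl7a* (-0.0467) and *Rpl17* (-0.0891) also reversed.

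Mice of the same time and letter were taken as pairs in a replicate block. Their deviations from the group means correlated by over 0.1 in 16 of 18 pairs (range -0.07 to 0.40), and 17 of 18 THRB WT mice correlated best with the THRB KO mouse of their own letter, a hint from the data that letters go together. The labels name nothing that same-lettered mice share, although the animal numbers of many such pairs were adjacent or close. Because nothing shared is named and 2 pairs stayed at or under 0.1, the main fits did not treat the letters as pairs. Under the replicate block, 1 gene passed for genotype (*Rps14*, adjusted p = 0.0257 by edgeR) and 43 had p under 0.05. For time, 4 passed in THRB WT and 8 over both genotypes. The shares of all tested genes under the block and the other alternatives are not given here, so these numbers cannot be set against them. The number for time in THRB WT was 1 with no filter on low counts or with time as a factor. With time as a factor it was 2 in THRB KO and 2 over both genotypes. Leaving out a letter gave from 1 to 2 in THRB WT, from 0 to 1 in THRB KO and from 2 to 5 over both. *Rps6* also lost its call with library totals alone (adjusted p = 0.0944 by edgeR) and with time as a factor (0.120), as did *Rpl22* (0.0785). The causes were not tested. With library totals alone, 15 genes passed for the letter. The mean share of counts in THRB KO livers was 1.96% of protein-coding nuclear counts and 1.94% with added copies.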

Other observations

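Genes whose level over the 36 mice was most like that of *Rpl30*, after subtraction of the mean of each sampling time, were looked for among 11917 genes with a mean of at least 50 counts, after the spread of *Rpl30* had been seen. The first was its near-identical copy *Gm12191* (correlation -0.831). The next 3 lie close to *Rpl30* on chromosome 15: *Cpq*, a carboxypeptidase gene, at a distance of 1.36 Mb (correlation 0.760), *Laptm4b*, a lysosomal membrane protein gene, at 0.202 Mb (-0.739), and *Polr2k*, a small subunit gene of the RNA polymerases, at 1.73 Mb (0.729). These correlations are given without a test, and whether the mice differ in strain sequence in this part of chromosome 15 was not tested. For *Rpl17* the most alike gene was again its copy, *Rpl17-ps10* (-0.895), and for *Rps27* it was *Rps27rt* (-0.771), and the next 3 genes of each lie on other chromosomes.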
